A study of Homo sapiens with 30 samples.

Results

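The MYC, MAX and MXD network was followed in 5 malignant T-cell lines exposed to chemotherapy. Its 9 genes were taken as MYC and MYCN, MAX, the antagonists MXD1, MXD3, MXD4, MXI1 and MNT, and MLX, and every probe that the platform annotation assigns to one of them, under its older or its present symbol, was read from the non-normalised data. This gave 18 probes of 47323 with values. After the filter on dim probes (detection p under 0.01 on at least 3 arrays) 16 of the 18 remained, at least 1 for each of the 9 genes, among 12482 genes tested in all.

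The lines were HD-MAR-2 and JURKAT (T-cell leukaemia), SUP-T1 (lymphoblastic T-cell lymphoma), KARPAS-299 (anaplastic large cell lymphoma) and HH (cutaneous T-cell lymphoma). Each was either left untreated or exposed for 24 h to CHOEP, the mixture of cyclophosphamide, doxorubicin, vincristine, etoposide and prednisone, at the IC50 of that line, the concentration with a half-maximal effect, so that the dose was set by line and not common to all of them. With 3 biological replicates in each of the 10 groups there were 30 arrays. Every group comes from a single established line. The p-values measure the spread between cultures within groups, which the main fit pools over the 10 groups. All arrays of a line share the first number in their names, read here as the chip. Those with CHOEP end in D, E or F and untreated ones in J, K or L, read as places. On that reading line and chip cannot be told apart, nor treatment and place.

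The protein c-MYC, like its relative N-MYC, binds DNA as a heterodimer with MAX at E-boxes and raises transcription of genes for ribosome production, nucleotide synthesis and cell cycle entry. The MXD proteins, MXI1 and MNT compete for MAX, occupy the same E-boxes and recruit SIN3 corepressors with histone deacetylases. MLX is a MAX-like protein that pairs with some MXD proteins and with the glucose-responsive factors of the MondoA family. MYC is commonly high in leukaemia and lymphoma of T-cell origin, where NOTCH signalling and chromosomal rearrangements drive it, while MXD genes are known for rising as cells leave the cycle and differentiate.

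The sequences upstream of the antagonist genes are given first, since MXD4, MXD1 and MXD3 are the genes whose signals changed most below. The promoter sequences used here, from RefSeq (GRCh38.p14), cover 8 of the 9 genes, MYC being the one not analysed, with 11 windows of 250 bases immediately before the start. The 3 windows shown lie at chr4:2262110-2262359 on the minus strand (MXD4), chr2:69914859-69915108 on the plus strand (MXD1) and chr5:177312753-177313002 on the minus strand (MXD3), are written 5′ to 3′, and carry any CACGTG, the canonical E-box, in capitals.
MXD4: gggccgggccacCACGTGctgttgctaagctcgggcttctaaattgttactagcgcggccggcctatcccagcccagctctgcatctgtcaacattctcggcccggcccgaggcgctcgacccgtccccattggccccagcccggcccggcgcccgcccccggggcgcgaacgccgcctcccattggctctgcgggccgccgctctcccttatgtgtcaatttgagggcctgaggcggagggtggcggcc
MXD1: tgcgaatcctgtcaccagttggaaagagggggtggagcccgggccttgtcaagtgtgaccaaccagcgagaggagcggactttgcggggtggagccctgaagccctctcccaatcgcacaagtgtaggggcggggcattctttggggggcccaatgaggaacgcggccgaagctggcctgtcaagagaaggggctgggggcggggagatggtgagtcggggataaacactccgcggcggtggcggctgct
MXD3: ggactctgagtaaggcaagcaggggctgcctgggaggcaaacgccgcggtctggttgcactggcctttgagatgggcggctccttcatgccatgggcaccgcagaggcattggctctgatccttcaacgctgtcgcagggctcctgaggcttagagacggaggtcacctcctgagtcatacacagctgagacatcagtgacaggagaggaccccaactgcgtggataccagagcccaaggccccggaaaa

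CACGTG, which reads alike on both strands, occurred between 238 and 233 bases before the start of MXD4, and in neither of the other 2 windows shown. It was also found before MNT (193 to 188 bases) and MLX (50 to 45 bases). Among all 35116 windows listed by RefSeq 6.34% hold it, and it was found for 3 of the 8 genes. The former is a share of windows, and the 8 genes have 11 windows between them, so the 2 are not alike. The 30 bases around each match are shown to compare the flanks, at chr4:2262330-2262359 (minus strand), chr17:2401236-2401265 (minus strand) and chr17:42567038-42567067 (plus strand).
MXD4 E-box: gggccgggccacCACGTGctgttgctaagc
MNT E-box: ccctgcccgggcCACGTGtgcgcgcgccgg
MLX E-box: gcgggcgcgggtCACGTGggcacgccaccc

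The forkhead element GTAAACA, searched on both strands, was present in 2.98% of windows and among the network genes only in a window of MXI1, on the reverse strand. Only these exact letters were searched, and not variants of them. These matches describe the letters, and binding was not measured.

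All values below are normalised log2 signals. A gene rose or fell where limma gave a Benjamini-Hochberg adjusted p under 0.05 over all probes kept, and was called when the change was also at least 2-fold. The brightest probe of a gene, by its mean over all arrays, stands for it, and further probes are described separately. Levels are compared between lines for 1 probe at a time, since signals of different probes are not on a common scale. Between 16003 and 18239 probes were detected per array. All 30 arrays correlated best with an array of their own line, and 28 with one of their own group, the exceptions being JURKAT CHOEP replicate 3 and JURKAT untreated replicate 1. ALK, the kinase activated by translocation in anaplastic large cell lymphoma, had signals of 12.90 to 13.23 on the 6 KARPAS-299 arrays and was otherwise detected on 2 SUP-T1 arrays and 1 JURKAT array. TNFRSF8, which encodes CD30, the other marker listed for that lymphoma, was detected on 0 KARPAS-299 arrays and on 5 HH arrays, which goes against its use as a marker here. Of 8 T-cell markers with a probe, CD3D and CD5 were detected on all 30 arrays. On KARPAS-299 arrays CD2, CD3E, CD3G and LCK were not detected, and CD7 and CD28 on 1 array each. On HH arrays CD28 and LCK were not detected and CD7 was on 4, while the other 3 lines had all 8 markers on every array.

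MYC was bright on every array. Untreated HD-MAR-2 had a mean of 13.61 ± 0.16 (SD, n = 3), SUP-T1 13.50 ± 0.20 and JURKAT 13.32 ± 0.07, and these neighbours in the order did not differ beyond their spread (adjusted p = 0.52 and 0.251, limma). HH at 12.49 ± 0.12 lay 0.83 below JURKAT (adjusted p = 3.82e-06), and KARPAS-299 at 12.39 ± 0.14 was not separable from HH (adjusted p = 0.532). The order depended on the probe. By the second MYC probe JURKAT was highest, 1.18 above KARPAS-299, which was again lowest, and over the 30 arrays the 2 probes had a Pearson correlation of only 0.27.

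CHOEP lowered MYC in HD-MAR-2 and SUP-T1. The CHOEP-treated HD-MAR-2 arrays read 13.03, 13.12 and 13.25, and the untreated ones 13.43, 13.67 and 13.72. The groups did not overlap, and the change was -0.47 (SE 0.13), a 1.39-fold fall (adjusted p = 0.00757, limma). In SUP-T1 the values were 12.93, 12.97 and 13.25 with CHOEP against 13.32, 13.46 and 13.72 without, again with no overlap. This 1.36-fold fall (-0.45, SE 0.13, adjusted p = 0.0131) is less secure: it was 0.115 when SUP-T1 was fitted alone, 0.0528 and 0.0652 without CHOEP replicate 1 or 3, and 0.0959 without untreated replicate 3. After median scaling the fall was larger (-0.74, adjusted p = 0.000655). The second probe fell in the same lines, by 0.64 in HD-MAR-2 (adjusted p = 0.00113) and, in SUP-T1, by 0.72 (adjusted p = 0.000394). On neither probe did MYC reach a 2-fold change in any line.

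In the other lines MYC did not pass the test. The CHOEP-treated KARPAS-299 arrays read 12.46, 12.51 and 12.68 and the untreated ones 12.30, 12.33 and 12.55, a change of 0.16 with a 95% confidence interval from -0.11 to 0.43. JURKAT had 12.99, 13.25 and 13.56 with CHOEP and 13.25, 13.36 and 13.37 without, a change of -0.05 (interval -0.32 to 0.21). HH read 12.37, 12.38 and 12.44 against 12.36, 12.53 and 12.59, a change of -0.10 (interval -0.37 to 0.17). The treated and untreated values overlapped in all 3 of these lines. On the second probe the JURKAT groups did not overlap, at 12.96 to 13.05 against 13.15 to 13.23, but the change of -0.19 did not pass the test (adjusted p = 0.92).

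The effect on MYC differed between lines by the F test of the fit (adjusted p = 0.0314, and 0.00722 on the second probe). Among pairs of lines, HD-MAR-2 and SUP-T1 each had a change below that of KARPAS-299 (0.16), by 0.63 (adjusted p = 0.0157) and 0.61 (adjusted p = 0.0251). Their differences from JURKAT did not pass (adjusted p = 0.154 and 0.217), nor did those from HH on this probe (adjusted p = 0.195 and 0.232), although the latter passed on the second probe (adjusted p = 0.0444 and 0.0205). Averaged over the 5 lines MYC fell by 0.18 (adjusted p = 0.0164), and by 0.34 after median scaling (adjusted p = 0.000245).

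MYCN, the paralogue best known from neuroblastoma, was detected on 6 arrays, all of them JURKAT. Its values there were 7.40, 7.59 and 7.67 with CHOEP and 7.66, 7.76 and 7.81 without. The groups touched at one array, and the change of -0.18 did not pass the test (adjusted p = 0.9). In HH the probe read lower with CHOEP at an adjusted p of 0.000139, but it was below detection on all 6 HH arrays, so no fold change is given. The other MYCN probe was detected on 0 arrays and was left out by the filter.

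MAX, the shared partner, changed little on its representative probe. Untreated levels ran from 8.69 in HD-MAR-2 to 9.42 in JURKAT, and only the step from HH (9.06) down to HD-MAR-2 passed the test among neighbours (adjusted p = 0.0154). With CHOEP the mean was higher in 5 of 5 lines, by 0.03 in HH to 0.31 in KARPAS-299, though no line passed. The average rise of 0.19 passed (adjusted p = 0.0166), but not after median scaling in place of quantile normalisation (0.05, adjusted p = 0.71).

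A second MAX probe, designed to another transcript, behaved differently. It rose in HD-MAR-2 from 7.40, 7.54 and 7.58 to 7.99, 8.17 and 8.30 (0.65, SE 0.17, adjusted p = 0.00471). In HH it went from 7.35, 7.64 and 7.68 to 7.93, 8.17 and 8.37 (0.60, adjusted p = 0.0117), and in SUP-T1 from 9.48, 9.71 and 9.73 to 10.04, 10.13 and 10.15 (0.46, adjusted p = 0.0439). In these 3 lines every treated array lay above every untreated one. The same probe had the widest untreated spread of all the network's probes, 3.31 on the log2 scale between SUP-T1, the highest line, and JURKAT, the lowest. The other 2 MAX probes had average changes of 0.18 (adjusted p = 0.0169) and -0.04 (adjusted p = 0.837). Which MAX transcripts these probes report was taken from the platform annotation and not checked.

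**Figure D1:**
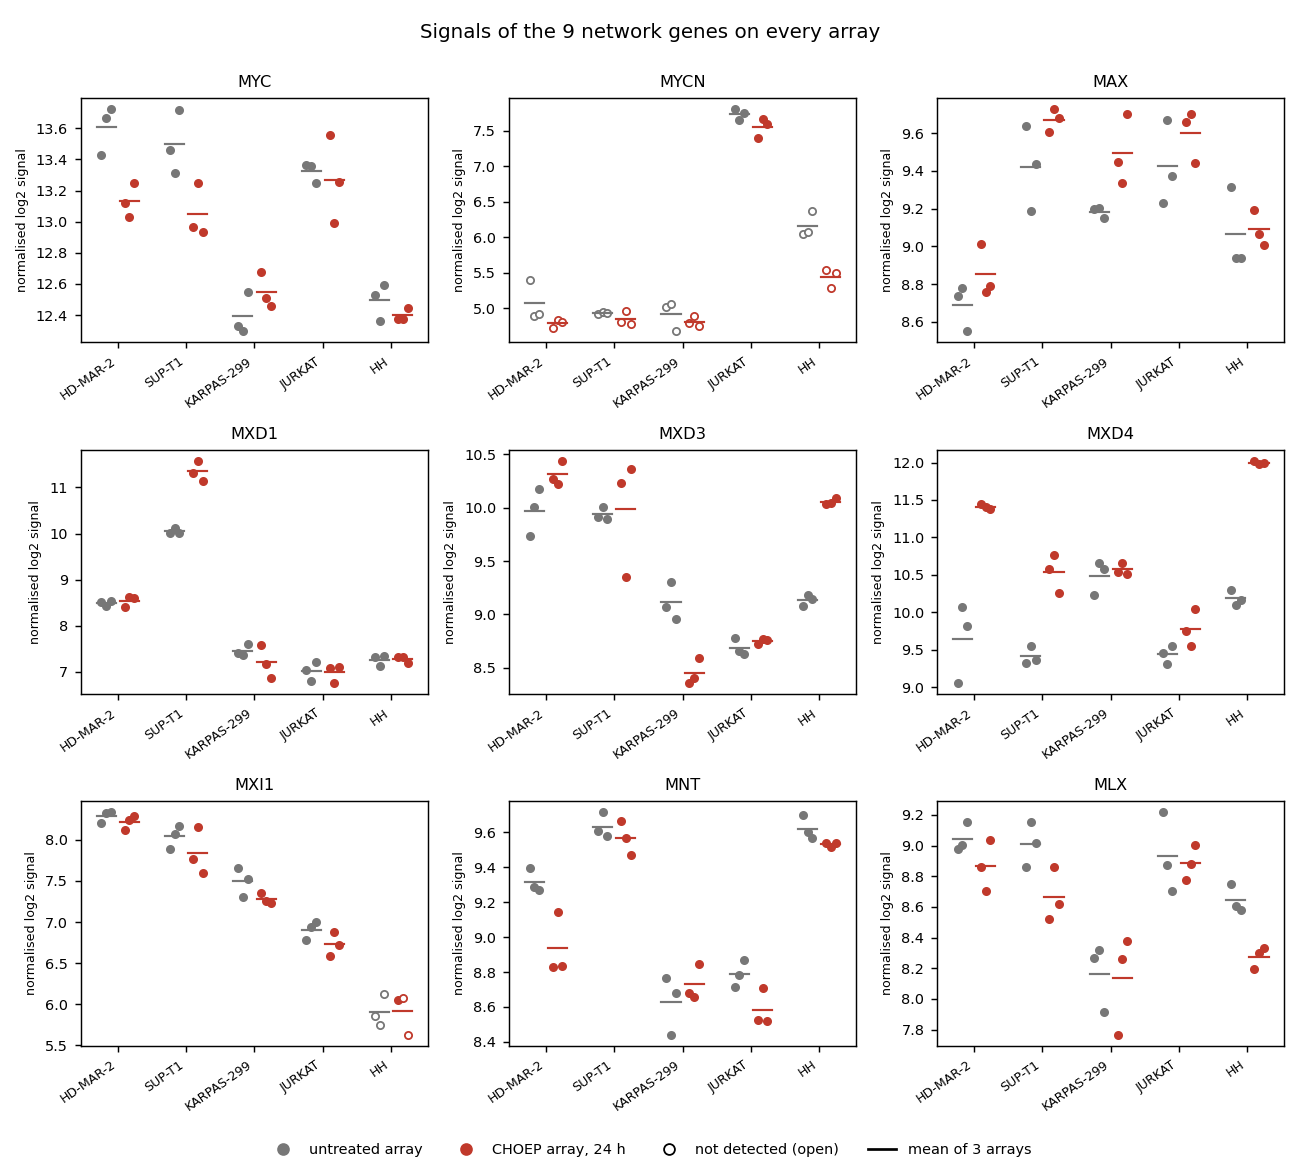
Normalised log2 signal (vertical axis) of the representative probe of each of the 9 genes on all 30 arrays, by line; grey points are untreated arrays, red points CHOEP-treated arrays, open points arrays where the probe was not detected, and bars the mean of 3 arrays. In HH the 3 treated MXD4 points lie between 11.98 and 12.02, above the untreated points at 10.10 to 10.30.

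MXD4 showed the largest changes of the network. It encodes an MXD protein described mainly in differentiating cells. In HH the CHOEP-treated arrays read 11.98, 11.99 and 12.02 and the untreated ones 10.10, 10.17 and 10.30. The treated values lay close together and far above the untreated values, a 3.5-fold rise (1.81, SE 0.18, adjusted p = 1.26e-08, limma). HD-MAR-2 rose 3.39-fold, from 9.06, 9.81 and 10.07 to 11.37, 11.41 and 11.45 (1.76, adjusted p = 2.07e-08). SUP-T1 rose 2.18-fold, from 9.32, 9.37 and 9.55 to 10.26, 10.58 and 10.77 (1.12, adjusted p = 2.81e-05). The groups did not overlap in any of these 3 lines. The untreated HD-MAR-2 arrays were more scattered (SD 0.53) than those of the other lines, and leaving out single arrays moved the HD-MAR-2 change between 1.47 and 1.97.

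KARPAS-299 and JURKAT did not pass the test for MXD4. The KARPAS-299 arrays read 10.51, 10.54 and 10.66 with CHOEP and 10.23, 10.57 and 10.66 without (0.09, interval -0.27 to 0.45). The JURKAT arrays read 9.55, 9.75 and 10.04 against 9.31, 9.46 and 9.55 (0.34, interval -0.02 to 0.70), with the groups meeting at 9.55. KARPAS-299 had the highest untreated mean, 10.49 ± 0.23, followed by HH at 10.19 ± 0.10, and these did not differ (adjusted p = 0.151). HD-MAR-2 (9.65), JURKAT (9.44) and SUP-T1 (9.41) followed without a difference between neighbours (adjusted p = 0.316 and 0.901), and HD-MAR-2 lay 0.54 below HH (adjusted p = 0.00805).

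The difference between lines was itself past the test for MXD4 (adjusted p = 3.56e-06). HD-MAR-2 rose by 1.67 more than KARPAS-299 and by 1.42 more than JURKAT (adjusted p = 1.85e-05 and 0.000253). HH rose by 1.72 and 1.47 more (adjusted p = 1.84e-05 and 0.000191), and SUP-T1 by 1.04 and 0.79 more (adjusted p = 0.00452 and 0.0468). Among these 3 lines themselves no difference passed (adjusted p = 0.107 for HD-MAR-2 and SUP-T1, 0.936 for HD-MAR-2 and HH, 0.0652 for SUP-T1 and HH). On average over the lines MXD4 rose by 1.02 (SE 0.08, adjusted p = 1.49e-10). MXD4 is one of the genes that the study itself selected on these arrays, so its rise is no independent observation.

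MXD1, the founding antagonist, also called MAD, rose in SUP-T1. There the values were 11.15, 11.32 and 11.58 with CHOEP against 10.01, 10.01 and 10.12 without. All treated arrays stood at least 1 log2 unit above all untreated arrays, and the rise was 2.47-fold (SE 0.14 on the log2 scale, adjusted p = 1.95e-07). SUP-T1 also had the highest untreated level, 10.05 ± 0.06, followed by HD-MAR-2 at 8.49 (adjusted p = 5.27e-10). KARPAS-299 (7.46), HH (7.26) and JURKAT (7.01) came last, with no difference between neighbours (adjusted p = 0.237 and 0.141). KARPAS-299 did lie above JURKAT, by 0.45 (adjusted p = 0.00885, limma). The untreated range of 3.04 corresponds to an 8.2-fold difference in signal between SUP-T1 and JURKAT.

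In the 4 other lines MXD1 changed by 0.05 (HD-MAR-2), -0.26 (KARPAS-299), -0.02 (JURKAT) and 0.02 (HH), with overlapping groups throughout. The rise in SUP-T1 exceeded the change in each of them, by 1.25 to 1.56 (adjusted p between 4.39e-06 and 0.00014), and the effect differed between lines overall (adjusted p = 8.34e-06). The average rise of 0.22 (adjusted p = 0.00969) was 0.10 after median scaling (adjusted p = 0.435). Median scaling also put both SUP-T1 rises just under 2-fold, at 0.98 for MXD1 and 0.86 for MXD4, each still past the test (adjusted p = 0.000988 and 0.00228).

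MXD3, which unlike the other MXD genes has been linked to proliferating cells, moved in opposite directions in 2 lines. In HH it rose 1.89-fold, from 9.08, 9.15 and 9.18 to 10.04, 10.04 and 10.09 (0.92, SE 0.16, adjusted p = 0.000181). In KARPAS-299 it fell 1.58-fold, from 8.96, 9.07 and 9.31 to 8.36, 8.41 and 8.59 (-0.66, adjusted p = 0.0114). Neither pair of groups overlapped. The fall in KARPAS-299 did not pass without CHOEP replicate 1 (adjusted p = 0.0601) or untreated replicate 2 (adjusted p = 0.0837). Between these 2 lines the effect differed by 1.58 (adjusted p = 2.31e-05), and over all lines the F test gave an adjusted p of 0.000158.

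In HD-MAR-2 the treated MXD3 values, 10.23, 10.27 and 10.44, all lay above the untreated values, 9.73, 10.00 and 10.18, but the change of 0.34 did not pass (adjusted p = 0.125). In SUP-T1 the treated arrays read 9.35, 10.24 and 10.37 and the untreated ones 9.89, 9.91 and 10.01. CHOEP replicate 2 was the low array, and without it the change in SUP-T1 was 0.36 (adjusted p = 0.0282) in place of 0.05 (adjusted p = 0.886). The average of MXD3 over the lines did not pass with all arrays (0.14, adjusted p = 0.138) and passed without that array (0.20, adjusted p = 0.00209). JURKAT changed by 0.06. Untreated MXD3 was highest in HD-MAR-2 (9.97) and SUP-T1 (9.94), which did not differ, and lowest in JURKAT (8.69).

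MXI1, mapped to a region of chromosome 10 often lost in tumours, had no change past the test in any line on its representative probe. Changes ran from -0.22 in KARPAS-299 to 0.01 in HH, and on HH arrays the probe was detected only once. A second probe that the annotation assigns to the same transcript rose in SUP-T1, from 5.28, 5.61 and 6.12 to between 6.95 and 7.36 (1.43, SE 0.16, adjusted p = 3.19e-07), with detection on 1 of 3 untreated and on all 3 treated arrays. These 2 MXI1 probes did not share a sign in any of the 5 lines, so no direction is given for MXI1. The second probe was detected on 10 arrays in all, those of HD-MAR-2 and SUP-T1, and the effect on it differed between lines (adjusted p = 0.000101). Another kept MXI1 probe, annotated to a different transcript and also detected on 10 arrays, passed in no line. In HD-MAR-2 it read 5.43, 5.90 and 6.19 with CHOEP, below the untreated 6.25, 6.33 and 6.40. That change was -0.49 (adjusted p = 0.0551, limma), with detection on 1 treated and 3 untreated arrays. In SUP-T1 it changed by 0.20 (adjusted p = 0.5).

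**Figure D2:**
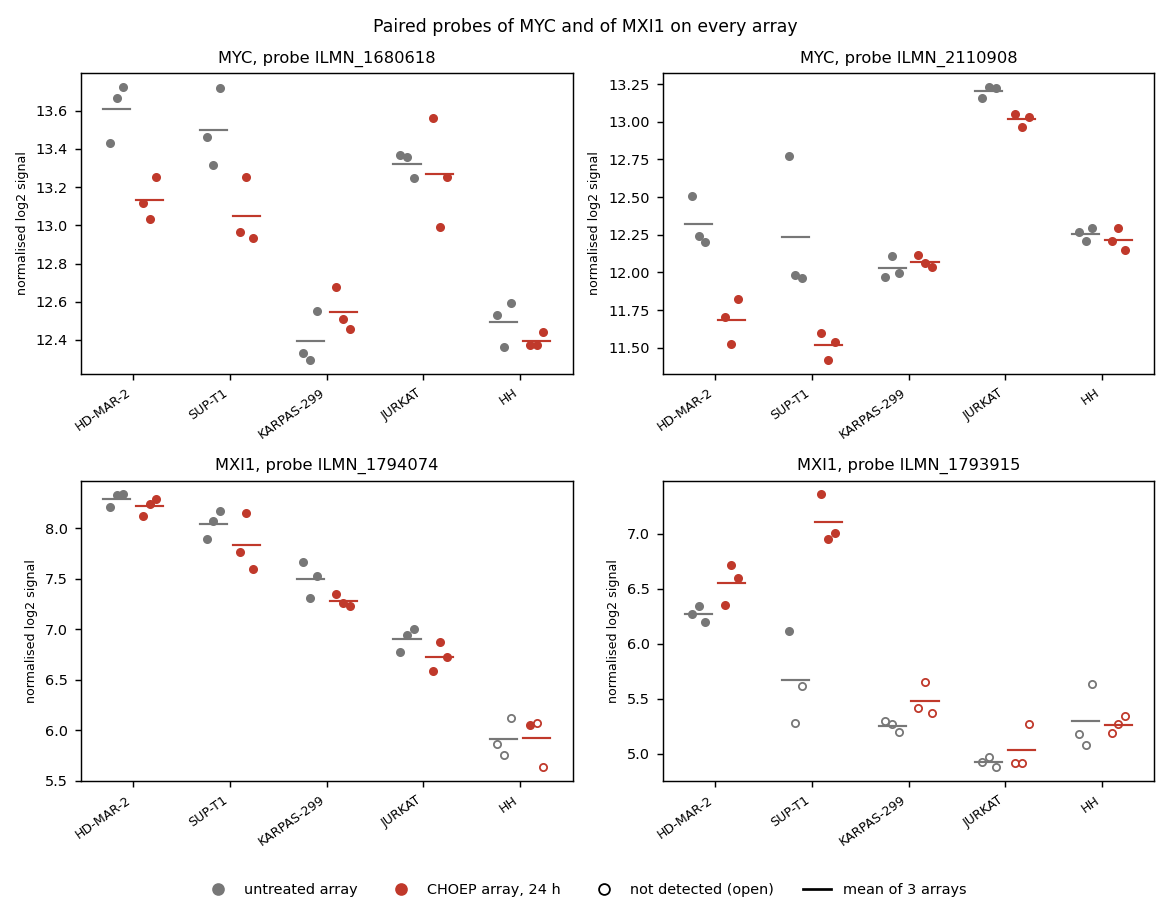
Normalised log2 signal (vertical axis) on every array for 2 probes of MYC (top) and 2 of MXI1 (bottom), by line; grey points are untreated arrays, red points CHOEP-treated arrays, open points arrays without detection, and bars the mean of 3 arrays. Both MYC probes fell in HD-MAR-2 and SUP-T1, whereas the SUP-T1 rise of 1.43 was seen on only 1 of these 2 MXI1 probes.

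MNT, a widely expressed antagonist present in cycling and resting cells alike, fell in HD-MAR-2. Its values there were 8.83, 8.83 and 9.14 with CHOEP and 9.27, 9.29 and 9.39 without. The groups did not overlap, and the fall was 1.3-fold (-0.38, SE 0.10, adjusted p = 0.00587, or 0.0548 with HD-MAR-2 fitted alone). The other lines changed by -0.20 (JURKAT), -0.09 (HH), -0.07 (SUP-T1) and 0.10 (KARPAS-299), none past the test, although the JURKAT and HH groups did not overlap. The F test of a difference between lines did not pass (adjusted p = 0.0892). The average fall of 0.13 passed (adjusted p = 0.0311), but no longer without any one of JURKAT CHOEP replicate 1 or 3, JURKAT untreated replicate 3, KARPAS-299 CHOEP replicate 2, KARPAS-299 untreated replicate 1, HH untreated replicate 1 or HD-MAR-2 CHOEP replicate 1 or 3 (adjusted p from 0.0504 to 0.0576).

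MLX passed in no single line in the fit described here. Its changes were -0.37 in HH, -0.34 in SUP-T1, -0.18 in HD-MAR-2, -0.05 in JURKAT and -0.03 in KARPAS-299. In HH the treated arrays (8.19, 8.30 and 8.33) lay below the untreated ones (8.58, 8.61 and 8.75) without overlap (adjusted p = 0.0893, or 0.0261 with HH fitted alone). In SUP-T1 the fall had an adjusted p of 0.0971, and passed after median scaling (-0.57, adjusted p = 0.0202) and without CHOEP replicate 2 (-0.44, adjusted p = 0.0495). The average fall of 0.19 passed (adjusted p = 0.0247). A second MLX probe, detected on 19 arrays, gave -0.14 (adjusted p = 0.271) and had a Pearson correlation of -0.21 with the first over the 30 arrays.

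Counted over the 9 genes, HD-MAR-2 had 1 gene that rose and 2 that fell, where 14.9% of all genes tested rose in that line and 15.8% fell. SUP-T1 had 2 that rose and 1 that fell (12.3% and 13.9% of all genes). KARPAS-299 had 0 that rose and 1 that fell (2.8% and 4.02%), and JURKAT 0 and 0 (0.12% and 0.024%). HH had 2 that rose and 1, the undetected MYCN, that read lower (9.89% and 9.64%). Members called at 2-fold were all higher: MXD4 in HD-MAR-2 (1.86% of all genes called up), MXD4 and MXD1 in SUP-T1 (1.59%) and MXD4 in HH (1.92%). None was called in KARPAS-299 or JURKAT, where 0.569% and 0.0481% of all genes were called up. On average over the lines 3 rose (MAX, MXD1 and MXD4) and 4 fell (MYC, MNT, MLX and MYCN, the last on arrays mostly without detection), where 17.8% of all genes rose and 20.1% fell. The median change of the 9 was -0.13 on average, and that of all genes -0.01.

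The effect differed between lines for 5 of the 9 genes, MYC, MYCN, MXD1, MXD3 and MXD4, where 35.1% of all genes did. For MYCN this rests on arrays without detection. Untreated levels differed between lines for 9 of 9, and for 95.5% of all genes, so this does not set the network apart.

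**Figure D3:**
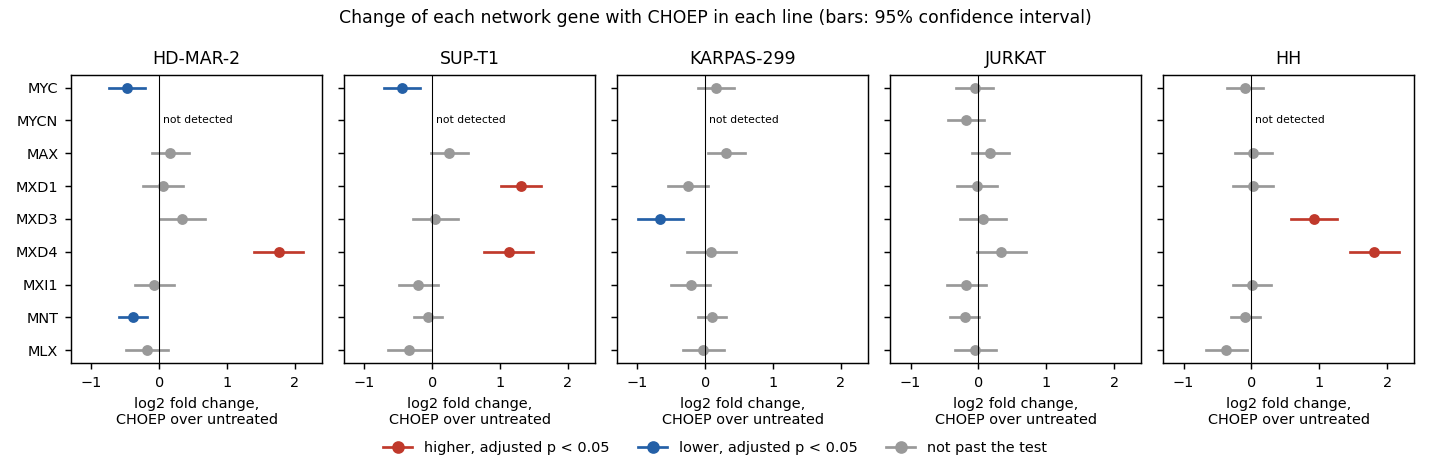
Log2 fold change with CHOEP (horizontal axis, CHOEP-treated over untreated) of the 9 genes in each line, with 95% confidence intervals from the fit; red points rose and blue points fell at an adjusted p under 0.05, grey points did not pass, and genes detected on no array of the line carry no point. The MXD4 point of HH lies at 1.81, that of HD-MAR-2 at 1.76 and that of SUP-T1 at 1.12, with JURKAT at 0.34 and KARPAS-299 at 0.09.

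MYC was set against each antagonist by the difference of their changes on the same arrays, which needs no common scale and was given no test. Relative to MXD4, MYC shifted most in HD-MAR-2 (-2.24, SE 0.24), followed by HH (-1.90, SE 0.07) and SUP-T1 (-1.57, SE 0.19). As ratios of signals these are falls of 4.71-fold, 3.74-fold and 2.97-fold. In HD-MAR-2 and SUP-T1 both genes contributed, with MYC lower and MXD4 higher, whereas in HH MYC changed by -0.10 and MXD4 by 1.81. The shift was -0.39 (SE 0.20) in JURKAT and 0.07 (SE 0.16) in KARPAS-299, where treated and untreated arrays overlapped.

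Relative to MXD1, MYC shifted by -1.75 (SE 0.15) in SUP-T1 and by -0.53 (SE 0.14) in HD-MAR-2, and the other way in KARPAS-299 (0.41, SE 0.14). In JURKAT and HH treated and untreated arrays overlapped on this measure. In HD-MAR-2 MXD1 itself changed by 0.05, and in KARPAS-299 neither MYC (0.16) nor MXD1 (-0.26) passed its own test. Relative to MXD3 the shift was -1.02 (SE 0.09) in HH and -0.82 (SE 0.05) in HD-MAR-2, and of the opposite sign in KARPAS-299, at 0.82 (SE 0.22). Against MNT every line overlapped, with shifts from -0.38 in SUP-T1 to 0.15 in JURKAT and -0.09 in HD-MAR-2, the line in which both MNT and MYC fell. Against MXI1, whose probes disagree, shifts ran from -0.40 in HD-MAR-2 to 0.37 in KARPAS-299.

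**Figure D4:**
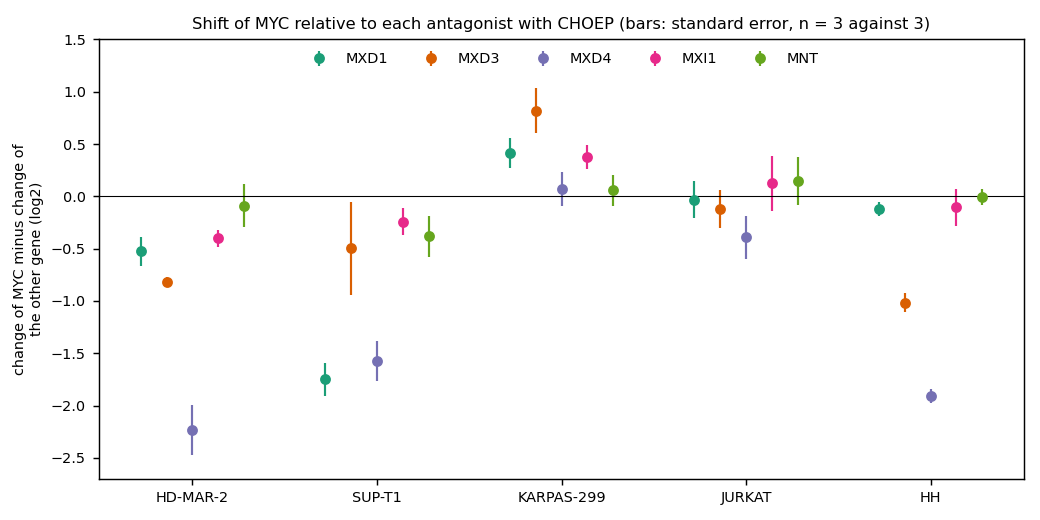
Change of MYC minus change of each antagonist with CHOEP (vertical axis, log2) in each line, coloured by antagonist, with standard errors from the per-array differences of 3 treated against 3 untreated arrays. Against MXD4 the point of HD-MAR-2 lies at -2.24, that of HH at -1.90 and that of SUP-T1 at -1.57, while KARPAS-299 lies near 0.

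Over the 30 arrays, after each line's mean was taken away, MYC and MXD4 had a Pearson correlation of -0.53, and of -0.58 without JURKAT. MYC with MXD3 gave -0.41 and with MXD1 -0.37, and with MNT 0.30 and with MLX 0.32. These points share line, chip and treatment, so the values are descriptions. By the same measure, the genes with the pattern most like that of MXD4 among 12481 others were PIK3IP1 (0.96), an inhibitor of PI3 kinase, DDIT4 (0.96), an inhibitor of mTORC1, and AKAP13 (0.95), an anchoring protein with exchange activity for RhoA. In HD-MAR-2 PIK3IP1 changed by 4.40, in HH by 3.58, in SUP-T1 by 2.26, in JURKAT by 1.03 and in KARPAS-299 by 0.67. PIK3IP1 and DDIT4, like MXD4, are among the genes that the study selected on these arrays. The most opposed were NUP153 (-0.93), MMD (-0.92) and FADS1 (-0.92). For MYC the nearest were YWHAQ (0.87), EXO1 (0.84) and NAPEPLD (0.83), and the most opposed DAPK3 (-0.83), PCTP (-0.82) and RIT1 (-0.82).

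Many of the genes that MYC is known to activate fell in 3 of the lines. Of 44 listed, 40 were tested. In HD-MAR-2 22 fell and 0 rose, with a median change of -0.36, where 15.8% of all genes fell and the median of all genes was -0.01. In SUP-T1 23 fell and 0 rose (median -0.42, 13.9% of all genes fell). In HH 21 fell and 0 rose (median -0.34, 9.64% of all genes fell), although MYC itself did not pass there. After median scaling only 6 passed in HH. In SUP-T1 fitted alone 12 fell.

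In KARPAS-299 0 of these 40 targets fell and 1, the spermidine synthase gene SRM, rose by 0.40 (adjusted p = 0.0463, chosen for mention after its value was seen), where 4.02% of all genes fell and 2.8% rose. SRM did not pass in KARPAS-299 after median scaling, without the detection filter, with the line fitted alone, or without any one of its CHOEP replicates or untreated replicate 1. JURKAT had 0 that rose and 0 that fell, where 0.024% of all genes fell. On average over the lines 31 fell and 1 rose, the telomerase gene TERT (0.28, adjusted p = 0.035, likewise named after its value was seen), where 20.1% and 17.8% of all genes did.

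The targets with the largest average changes were CDC25A, CCND2, SLC19A1 and PA2G4. CDC25A, the phosphatase that activates cyclin-dependent kinases at G1/S, fell in HH (-0.73, adjusted p = 0.000303), SUP-T1 (-1.21, adjusted p = 2.24e-07) and HD-MAR-2 (-1.28, adjusted p = 5.66e-08). Like MXD4 it belongs to the genes that the study selected on these arrays. CCND2, which encodes cyclin D2, fell by 2.37 in HD-MAR-2, from a mean of 10.75 to 8.38, and by 0.59 in HH, and was detected on no SUP-T1 or KARPAS-299 array. The folate carrier SLC19A1 dropped by 0.73 in SUP-T1 and by 0.98 in HD-MAR-2, and PA2G4, a regulator of ribosome production and growth, by 0.92 in HD-MAR-2.

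**Figure D5:**
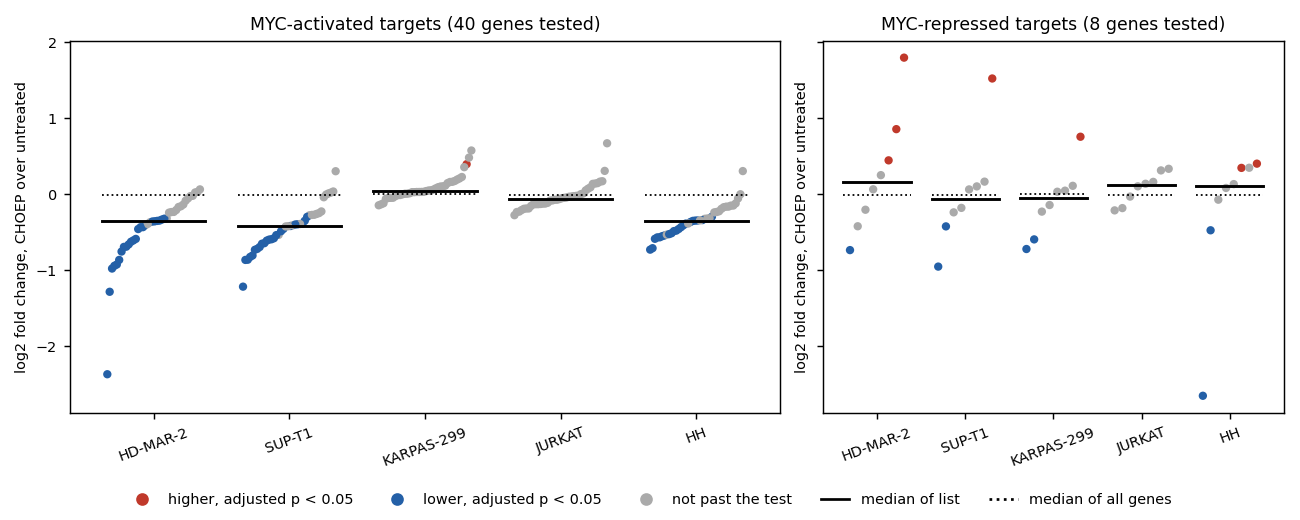
Log2 fold change with CHOEP (vertical axis) of each tested gene of the lists of MYC-activated (left) and MYC-repressed (right) targets, by line, ordered by size within a line; red points rose, blue points fell at an adjusted p under 0.05, grey points did not pass, solid bars are list medians and dotted bars medians of all genes. The activated targets have medians of -0.42 (SUP-T1), -0.36 (HD-MAR-2), -0.34 (HH), -0.06 (JURKAT) and 0.04 (KARPAS-299).

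Genes that MYC is known to repress had no common direction. Of 12 listed, 8 were tested, and on average over the lines 2 rose and 2 fell (25% each way, where 17.8% of all genes rose and 20.1% fell). The hypoxia- and stress-responsive NDRG1 rose in SUP-T1 (1.52, adjusted p = 2.09e-09) and in HD-MAR-2 (0.86). TXNIP, the thioredoxin-binding protein controlled by MondoA and MLX, rose in KARPAS-299 (0.76, adjusted p = 0.000369) and in HD-MAR-2 (1.80, adjusted p = 1.48e-10), and was detected on no SUP-T1 or HH array. CDKN1A, which encodes the cyclin-dependent kinase inhibitor p21, fell by 2.65 in HH, from a mean of 11.39 to 8.74 (adjusted p = 4.13e-13). CDKN1B, which encodes p27, fell by 0.59 in KARPAS-299 and rose by 0.35 in HH.

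Among cofactors and partners of the network, a list that shares TXNIP with the one before, 14 of 19 listed genes were tested, and on average 3 rose and 3 fell, 21.4% each way and so near the shares of all genes (17.8% and 20.1%). Those with the largest average changes were TXNIP (0.62), the MAX-binding repressor MGA (-0.31), the chromatin adaptor WDR5 (-0.30) and the acetyltransferase KAT2A (0.23). The remaining 2 that passed, named after their values were seen, were TRRAP (0.20) and SIN3A (-0.20). WDR5, which helps recruit MYC to chromatin, fell by 0.70 in HD-MAR-2 (adjusted p = 2.06e-05). Of 13 listed genes that control the turnover of the MYC protein, 9 were tested, and on average 4 fell and 0 rose, where 20.1% of all genes fell and 17.8% rose. They were the deubiquitinase USP37 (-0.61), the ubiquitin ligase component SKP2 (-0.36), the phosphatase inhibitor CIP2A (-0.34) and the phosphatase subunit PPP2CA (-0.16). USP37 fell by 1.35 and SKP2 by 0.98 in HD-MAR-2 (adjusted p = 2.8e-08 and 3.38e-08). The abundance of the MYC and MXD4 proteins was not measured on these arrays.

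The probes report RNA from whole cultures, in which fewer cells of a kind and less RNA per cell cannot be told apart. Markers of other cell types did not move alike. Summed over the 5 tested genes of other blood cells, signals were higher with CHOEP without overlap in HD-MAR-2 (513 to 584 against 343 to 430) and SUP-T1 (411 to 445 against 331 to 395). In KARPAS-299 the sum was lower without overlap (2008 to 2240 against 2274 to 2842), and the ranges overlapped in HH (552 to 573 against 496 to 562) and JURKAT. Of the 8 such genes with a probe, CD79A was detected on 26 arrays, CD14 on 21, LYZ on 19, PPBP on 16, CSF1R on 12 and MS4A1 on 1, and HBB and MPO on 0. Detection varied by line. HD-MAR-2 had CD79A on 6 arrays, CD14 on 5, PPBP on 4, LYZ on 1 and CSF1R on 0. KARPAS-299 had LYZ and CSF1R on 6 each, CD79A on 2, PPBP on 1 and CD14 on 0. The sums thus include signals of genes without detection in a line. Of the fibroblast and epithelial markers COL1A1 was detected on 6 arrays and COL1A2, KRT8 and EPCAM on 0. The summed signal of 8 T-cell markers was higher with CHOEP in HD-MAR-2 (62240 to 66419 against 54734 to 60319). It was lower in HH (24360 to 24629 against 26807 to 27540) and KARPAS-299 (5018 to 5621 against 6319 to 7449), and overlapped in SUP-T1 and JURKAT. Such sums follow the brightest probes. Gene by gene, 2 of the 8 rose and 0 fell in HH (9.89% and 9.64% of all genes). In SUP-T1 0 rose and 4 fell (12.3% and 13.9%), and in KARPAS-299 0 and 2 (2.8% and 4.02%). HD-MAR-2 had 1 that rose and 0 that fell (14.9% and 15.8%), and JURKAT 0 and 0 (0.12% and 0.024%). The part of these markers in the network's changes was not tested.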

How the data were processed

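RNA of the 30 cultures was hybridised to Illumina HumanHT-12 BeadChips, a 1-colour array. The authors deposited the unnormalised signal intensity of each probe as read by BeadStudio (version 3 per the submitters' processing notes) together with its detection p-value. Their normalised log2 values, which the authors obtained with the robust spline method of lumi, served here only as an alternative. Of 48107 probes 47323 had values. The platform table names 30113 of these by 1 gene symbol (30074 matched to RefSeq by Entrez number), 8 by several and 17202 by none.

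The function neqc of limma 3.58.1 (R 4.3.3) corrected background from the detection p-values, normalised by quantiles and took log2 after adding an offset of 16. A probe had to be detected at p under 0.01 on 3 or more arrays, which kept 22652 probes and 12482 genes, each gene read from its brightest probe. Limma fitted 1 mean for each of 10 groups, leaving 20 residual degrees of freedom, and its moderated tests gave the CHOEP effect per line, the average effect, F tests of differences between lines and of untreated levels, and pairwise differences. Benjamini-Hochberg adjustment covered every probe kept. With 3 arrays per group the number of arrays limits the precision, and median signals per array were 81.1 to 122.6. The fit was tested on simulated data.

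The members and the gene lists were chosen with earlier results of these data known. Named genes are the 9 members, up to 4 tested genes of each list with the largest absolute average change, ALK, and for MYC and MXD4 the 3 genes with the highest and the 3 with the lowest correlation. MXD4, CDC25A, PIK3IP1 and DDIT4 are among the genes the study selected. Alternatives covered normalisation (the authors' values, no background correction, median scaling, each chip normalised by itself, an offset of 50), the detection filter, further probes, a replicate block, a robust variance trend, separate fits per line, no fold threshold, and leaving out each array in turn. Doses are not given here because the sample labels do not state them.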

Additional observations from a re-analysis of the deposited data

Results flagged for a closer look

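The CHOEP effect differed between lines, by the F test of the fit, for several of the network's probes. The adjusted p of that test was 8.34e-06 for MXD1, 3.56e-06 for MXD4 and 0.000158 for MXD3. It was 0.0314 for the representative MYC probe and 0.00722 for the second MYC probe. For MXI1 it was 0.000101 on the second probe alone, which was detected on 10 arrays. For MYCN it was 0.0313, on a probe detected on JURKAT arrays only. No test for single outlying arrays was run in groups of 3.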

How the results depend on the processing

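Under the alternatives MXD4 rose in HD-MAR-2 (1.43 to 1.76), SUP-T1 (0.86 to 1.15) and HH (1.70 to 1.86), past the test each time, and MYC fell in HD-MAR-2 (-0.68 to -0.45) past the test each time. MYC in SUP-T1 did not pass with each line fitted alone (-0.45, adjusted p = 0.115). With single arrays left out its change ranged from -0.55 to -0.34 (adjusted p from 0.00561 to 0.0959). Without a fold threshold 3 members passed in HD-MAR-2, 1 in KARPAS-299 and 3 in HH. After median scaling 0 members reached 2-fold in SUP-T1. The cause of these differences was not tested. On another probe, MXI1 gave 1.43 in SUP-T1 and 0.40 on average, and MAX gave -0.037 on average, each with the sign turned.

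Median scaling moved the median change of all genes to -0.20 in HD-MAR-2, -0.18 in SUP-T1, -0.06 in KARPAS-299, -0.09 in JURKAT, -0.00 in HH and -0.11 on average. It moved MYC to -0.74 in SUP-T1 (adjusted p = 0.000655) and to -0.34 on average, and MLX passed in SUP-T1 (-0.57). It left 1 member that rose on average and 6 MYC-activated targets that fell in HH.

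Replicate numbers were not taken as pairs: same-numbered arrays correlated over 0.1 in 3 of 15 pairs, and 6 of 15 arrays correlated best with their own number. With the replicate block MYC changed by -0.47 in HD-MAR-2 (adjusted p = 0.02) and by -0.45 in SUP-T1 (adjusted p = 0.031), MXD4 by 1.02 on average, and the average of MNT did not pass (-0.13, adjusted p = 0.0515). With the block the same numbers of members were called at 2-fold in every line: 1 in HD-MAR-2, 2 in SUP-T1, 1 in HH and 0 in JURKAT and in KARPAS-299.

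The arrays give relative signals of probes, not transcripts per cell. Levels of different probes were not set against each other, except to pick a gene's brightest probe and in the marker sums. MYCN, detected on JURKAT arrays only, and MXI1, whose probes disagree, have no settled direction.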
